A study of Mus musculus with 4 samples.

Results

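The 10 genes described here encode lamins, proteins of the inner nuclear membrane and the small DNA-bridging protein BAF. They are Lmna, Lmnb1, Lmnb2, Lbr, Tmpo, Lemd2, Lemd3, Sun1, Sun2 and Banf1. Every site of an ATAC-Seq table that overlapped the body of one of these genes, or lay within 10 kb of one of its transcription start sites (TSSs), was taken, which gave 48 of 82325 sites. None of the 48 sites met the rule for differential accessibility between cells with and without HAT1, which 0.373% of all sites met. Their fold changes were mostly small, and 35 were above 0 (50.7% of all sites). That number was 29 with the libraries scaled to equal totals and 27 after quantile normalization. The last site inside the 10 kb limit lay 9.94 kb from a Tmpo TSS. It held 52 and 45 normalized counts in HAT1+/+ and 56 and 62 in HAT1-/-. The first site outside lay 10.32 kb from a Lmnb2 TSS, with 349 and 284 in HAT1+/+ and 362 and 400 in HAT1-/-.

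ATAC-Seq uses the Tn5 transposase to cut accessible chromatin and insert sequencing adapters, so that an accessible region collects more reads. Libraries came from embryonic mouse fibroblasts (MEFs) of the strain background C57bl6, immortalized with SV40 T antigen, which all 4 libraries share. There were 2 libraries from HAT1+/+ MEFs (WT) and 2 from HAT1-/- MEFs (KO), and each library title names a different line. HAT1 acetylates histone H4 soon after its synthesis, before it is placed on DNA. Each line grew from primary cells by immortalization, so a difference between genotypes rests on 2 lines against 2. Replicates were numbered in accession order and were not paired.

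Lamins polymerize into a protein layer, the nuclear lamina, that lines the inside of the nuclear envelope. This layer holds heterochromatin at the nuclear periphery in lamin-associated domains, both through the lamins and through membrane proteins such as LBR and the LEM-domain proteins, whose LEM domain binds the small DNA-bridging protein BAF. SUN proteins span the inner membrane and join the lamina to the cytoskeleton through nesprins. Fibroblasts are known for abundant A-type lamins, which embryonic stem cells hold at low levels. The study asked how the loss of HAT1 alters accessibility and related the domains it found to the lamina. By Western blot and imaging, it also reported no marked difference in lamin A/C or lamin B protein between HAT1+/+ and HAT1-/- MEFs. Accessibility at the genes that build the lamina is a separate question from accessibility of the chromatin bound to it, and only the first is described here.

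The libraries were checked before the members were examined. Normalized totals lay between 8008069 and 8516263. Scaling and rounding left some whole numbers more frequent than their neighbours and, in KO, some absent, and from this pattern approximate depths of 9430000 and 11420000 reads in sites for WT and 7830000 and 5680000 for KO could be derived, so both KO libraries were shallower than both WT libraries. The promoter site of Hat1 held 390 and 384 normalized counts in WT and 438 and 368 in KO, and the intronic site 37 and 19 against 28 and 36. Neither site separated the genotypes, so they gave no check of the labels. All 9 fibroblast markers had a promoter site (summed value 2235 to 2665 per library), as did 2 of 4 epithelial, 3 of 3 endothelial, 0 of 3 blood and 2 of 3 neural markers (43 to 85, 110 to 194, 0 and 119 to 199).

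Sequences of the promoters are shown first, because the accessible sites of the members fell into a GC-rich promoter class and a distal class. They are the bases before the TSS in RefSeq (GRCm38.p6), on the strand of the gene and without any exon, for Lmna, Lmnb2, Lbr, Tmpo, Sun1, Sun2 and Banf1. Capitals mark the GC box (GGGCGG, the motif of Sp-family factors) and the CCAAT box (CCAAT), on either strand, adjacent or overlapping matches running together. RefSeq promoters were used for 8 of the 10 genes, all but Lmnb1 and Lemd2, and the run of Lemd3 is not shown.
Lmna promoter, chr3:88503387-88503602, minus strand: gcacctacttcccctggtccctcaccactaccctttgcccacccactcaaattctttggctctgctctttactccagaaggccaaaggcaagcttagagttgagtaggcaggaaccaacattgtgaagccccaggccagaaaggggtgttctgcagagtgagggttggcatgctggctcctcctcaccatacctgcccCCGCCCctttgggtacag
Lmnb2 promoter, chr10:80918246-80918495, minus strand: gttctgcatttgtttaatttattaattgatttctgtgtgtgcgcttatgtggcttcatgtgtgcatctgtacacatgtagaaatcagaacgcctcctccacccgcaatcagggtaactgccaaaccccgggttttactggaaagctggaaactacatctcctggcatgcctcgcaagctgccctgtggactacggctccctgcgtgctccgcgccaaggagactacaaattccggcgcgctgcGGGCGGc
Lbr promoter, chr1:181842402-181842651, minus strand: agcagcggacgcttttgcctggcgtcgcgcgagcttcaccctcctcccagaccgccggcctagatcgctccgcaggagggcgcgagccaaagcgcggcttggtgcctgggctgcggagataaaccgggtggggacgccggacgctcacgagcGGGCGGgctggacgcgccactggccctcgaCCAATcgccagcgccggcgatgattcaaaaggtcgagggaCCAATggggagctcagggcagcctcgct
Tmpo promoter, chr10:91171620-91171869, minus strand: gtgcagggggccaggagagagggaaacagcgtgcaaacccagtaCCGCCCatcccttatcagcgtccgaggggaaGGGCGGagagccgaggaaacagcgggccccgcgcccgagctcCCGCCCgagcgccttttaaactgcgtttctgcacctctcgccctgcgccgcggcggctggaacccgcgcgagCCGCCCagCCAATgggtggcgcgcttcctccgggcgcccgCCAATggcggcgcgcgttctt
Sun1 promoter, chr5:139200387-139200636, plus strand: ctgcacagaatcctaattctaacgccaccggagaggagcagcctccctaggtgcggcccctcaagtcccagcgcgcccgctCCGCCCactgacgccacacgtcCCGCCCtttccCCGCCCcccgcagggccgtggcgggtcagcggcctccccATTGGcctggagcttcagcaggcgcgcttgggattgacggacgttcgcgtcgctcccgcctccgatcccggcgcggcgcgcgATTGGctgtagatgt
Sun2 promoter, chr15:79742537-79742697, minus strand: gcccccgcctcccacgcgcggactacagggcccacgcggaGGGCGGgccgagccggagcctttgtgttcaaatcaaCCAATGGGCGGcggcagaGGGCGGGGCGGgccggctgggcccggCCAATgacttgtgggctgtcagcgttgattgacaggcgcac
Banf1 promoter, chr19:5366364-5366433, minus strand: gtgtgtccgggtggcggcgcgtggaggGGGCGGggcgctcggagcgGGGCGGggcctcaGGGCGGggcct

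Among the runs shown, that of Lmna stood apart in base composition. It held 1 CpG dinucleotide in 216 bases, whereas the runs of 250 bases held 31 at Lbr, 32 at Tmpo, 30 at Sun1 and 14 at Lmnb2. GC boxes numbered 4 at Tmpo, 4 at Sun2, 3 at Sun1, 3 at Banf1 and 1 each at Lmna, Lmnb2 and Lbr. The CCAAT box occurred 2 times each at Lbr, Tmpo, Sun1 and Sun2 and was not in the windows shown for Lmna, Lmnb2 and Banf1. The Lemd3 run of 248 bases held 36 CpG, 1 GC box and 1 CCAAT box. Runs of 250 bases before a second RefSeq TSS, not shown, held 1 CpG at Sun1, 4 at Lmna, 5 at Lmnb2 and 16 at Tmpo. A low CpG count was thus not particular to Lmna.

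In the central 300 bases of each site, searched on both strands for 9 motifs, a GC box was present in 14 of the 15 promoter sites of the 10 genes and in 57.5% of all 16077 promoter sites. A promoter site is one within 1 kb of the TSS of a protein-coding transcript. The 33 other sites of the 10 genes held a GC box in 5 cases (7.6% of all nonpromoter sites). The AP-1 motif (TGANTCA), bound by Fos and Jun proteins, was present in 13 of these 33 sites (44.5% of all nonpromoter sites) and in 2 of the 15 promoter sites (9.4% of all promoter sites). Both of those promoter sites belonged to Lmna. Median GC content was 67.0% with 34 CpG in the promoter sites and 48.7% with 4 CpG in the others. All sites of each class had medians of 64.3% with 23 and 46.7% with 3. By the median, the promoter sites of the 10 genes thus held more CpG than all promoter sites. The main Lmna promoter site held 10 CpG, and the other Lmna promoter sites held 12 and 19. These motif matches are descriptions of the sequence only.

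Sites with an AP-1 motif were most numerous at Lmna, and the runs around 4 of them are shown in the orientation of the plus strand of GRCm38.p6, with the motif in capitals. The first lies in the site over a coding exon, the second in an intronic site, and the others in sites upstream of the gene.
Lmna, chr3:88488579-88488645: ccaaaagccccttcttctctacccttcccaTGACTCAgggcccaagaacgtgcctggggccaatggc
Lmna, chr3:88495030-88495096: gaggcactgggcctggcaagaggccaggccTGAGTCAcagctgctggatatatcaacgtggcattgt
Lmna, chr3:88514261-88514327: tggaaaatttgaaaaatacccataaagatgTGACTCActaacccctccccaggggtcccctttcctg
Lmna, chr3:88516589-88516655: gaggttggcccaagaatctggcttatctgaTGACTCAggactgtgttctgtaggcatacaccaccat

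Each of the 10 genes had at least 1 accessible promoter site, and their levels differed widely. The main promoter site is the one with the highest mean over the 4 libraries. Levels were compared per kb of site, because sites differ in length. Lmna, which encodes the A-type lamins A and C, had the most accessible main promoter site, at 623 ± 40.7 normalized counts per kb (SD, n = 4 libraries of both genotypes). It was higher than 97.7% of all promoter sites. Its choice was close, since its mean of 744 stood against 743 at chr3:88492382-88493386. Per kb, that site (740) and the Lmna promoter site at chr3:88509716-88510433 (694) were higher still. Lmnb2, which encodes lamin B2, had the least accessible main promoter site, at 199 ± 21.1 (SD, n = 4), higher than 39.7% of all promoter sites. Between these stood Tmpo at 459 ± 40.6, Lmnb1 at 436 ± 28.3 and Sun1 at 415 ± 20.1 (SD, n = 4 each). Lbr followed at 409 ± 11.4, Sun2 at 382 ± 38.9 and Banf1 at 354 ± 71.3, and Lemd2 and Lemd3 were lower at 241 ± 22.8 and 231 ± 29.6 (SD, n = 4 each). The median of all promoter sites was 234 per kb.

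**Figure D1:**
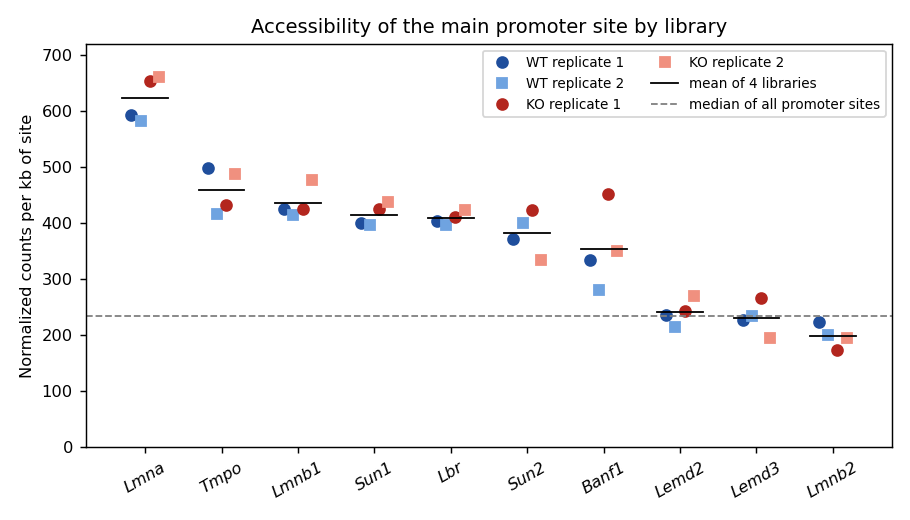
Normalized counts per kb of the main promoter site (y axis) of each of the 10 genes (x axis, ordered by mean), with circles for replicate 1 and squares for replicate 2 of WT (blue) and KO (red), a bar for the mean of 4 libraries and a dashed line at the median of all promoter sites, 234 per kb. Lmna lies alone at 582 to 661 in the 4 libraries, and Lemd2, Lemd3 and Lmnb2 lie near or below the dashed line.

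Per kb, the order falls into 3 groups whose libraries did not overlap. The 4 libraries of Lmna, at 582 to 661 per kb, lay above all values of the second gene, Tmpo, at 417 to 499. From Tmpo to Banf1, the ranges of neighbours in the order overlapped. The lowest Banf1 value, 281, was above the highest value of Lemd2, 270, and the ranges of Lemd2, Lemd3 and Lmnb2 again overlapped. Within each of the 4 libraries Tmpo was above Lmnb1, by little in WT replicate 2 (417 and 415), and Lemd2 was above Lmnb2. The other neighbours with overlapping ranges changed order between libraries. Without division by length the long Lemd2 and Lemd3 sites, of 1700 and 1673 bases, were higher than 86.4% and 84.2% of all promoter sites, against 51.8% and 49.3% per kb, so their place depends on this choice. The pair of B-type lamin genes thus differed more from each other, at 436 and 199 per kb, than the spread over libraries.

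The lamin genes were compared between genotypes first. The limma adjusted p was 1 at every one of the 48 sites, so each fold change below is given with its SE and the 95% interval of the limma fit. At the main Lmna promoter site (chr3:88502756-88503950, over a TSS and a coding exon), normalized counts were 709 and 696 in WT replicates 1 and 2 and 782 and 790 in KO replicates 1 and 2. Both KO values were above both WT values, by a small margin. The log2 fold change, KO against WT, was 0.16 (SE 0.08, 95% interval -0.03 to 0.35). The second Lmna promoter site (chr3:88492382-88493386, at a TSS inside the gene) held 669 and 672 in WT and 859 and 773 in KO. Here too the genotypes did not overlap, and the log2 fold change was 0.28 (SE 0.09, 95% interval 0.06 to 0.50), with an unadjusted limma p of 0.019. This was the 1 site of the 48 with an unadjusted p under 0.05, a level that 3.13% of all sites passed. It no longer passed that level without WT replicate 1, WT replicate 2 or KO replicate 1 (log2 fold changes of 0.28, 0.28 and 0.21), after quantile normalization (0.07), with equal totals (0.21) or without the intensity trend in limma.

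Lmna carried 11 of the 48 sites, more than any other member. All 11 had a fold change above 0 (50.7% of all sites) with the scaling of the deposited table, though the main promoter turned to -0.058 after quantile normalization. Log2 fold changes of the 11 sites ranged from 0.03 to 0.67, with a median of 0.19, and in 5 of them both KO values were above both WT values (14.6% of all sites). The largest was over a coding exon (chr3:88483623-88483943), with 52 and 65 in WT and 91 and 95 in KO. These values separated the genotypes, at a log2 fold change of 0.67 (SE 0.30, 95% interval -0.07 to 1.4). The most accessible nonpromoter site, in an intron (chr3:88490699-88491527), held 297 and 367 in WT and 476 and 352 in KO. There the KO libraries differed from each other by more than the genotypes did, and the log2 fold change was 0.31 (SE 0.20, 95% interval -0.17 to 0.79). Neighbouring sites of 1 gene share its chromatin and its libraries and are not replicates.

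**Figure D2:**
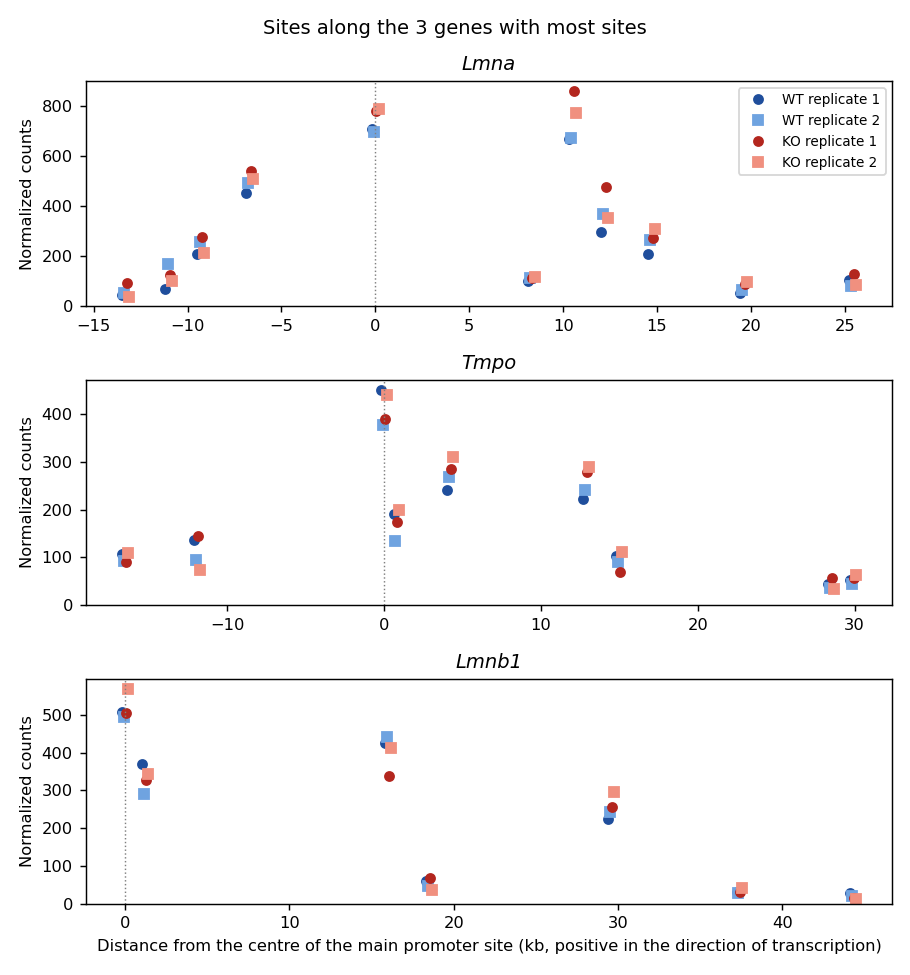
Normalized counts (y axis) of every site along Lmna, Tmpo and Lmnb1 against the distance in kb of its centre from that of the main promoter site (x axis, positive in the direction of transcription), with circles for replicate 1 and squares for replicate 2 of WT (blue) and KO (red), set slightly apart for legibility. Lmna has several sites of high value, with 669 to 859 at the promoter inside the gene, whereas in Tmpo and Lmnb1 the main promoter is the highest site.

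Lmnb1, which encodes lamin B1, had 7 sites with fold changes on both sides of 0. Its main promoter site (chr18:56707287-56708475) held 506 and 494 in WT and 505 and 568 in KO, so the genotypes overlapped, with a log2 fold change of 0.10 (SE 0.11, 95% interval -0.17 to 0.37). An intronic site (chr18:56723384-56724371) was the largest fall among the members whose mean reached the all-site median. It held 424 and 442 in WT and 337 and 411 in KO, and both KO values were below both WT values. The log2 fold change was -0.22 (SE 0.15, 95% interval -0.57 to 0.14), and without KO replicate 2 it was -0.36 and after quantile normalization -0.35, both past an unadjusted p of 0.05. A weak intronic site near the end of the gene (chr18:56752061-56752350) had the lowest fold change of all 48, at -0.86 (SE 0.53, 95% interval -2.13 to 0.42), from 28 and 21 in WT and 14 and 12 in KO. At such values a handful of reads moves the fold change.

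Lmnb2 had 1 site, its promoter (chr10:80917621-80918476). It held 192 and 172 in WT and 148 and 168 in KO, and both KO values were below both WT values. With a log2 fold change of -0.20 (SE 0.22, 95% interval -0.73 to 0.32), it was the lowest of the 10 main promoter sites. The interval was wide and covered both 0 and the values of the other lamin promoters. At the main promoters of the 3 lamin genes, the 95% limma interval covered 0 in each case. At that of Lmna, the replicates differed by log2 values of 0.027 in WT and -0.015 in KO, less than the genotypes did (0.16). The limma interval also draws on the variance of other sites of like level.

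The next genes encode proteins of the inner nuclear membrane that bind lamins and chromatin. The promoter of Lbr, whose product tethers heterochromatin through HP1 and is also a sterol reductase, held 444 and 437 in WT and 453 and 466 in KO (chr1:181841672-181842771). The 4 libraries were close to each other, and the log2 fold change was 0.06 (SE 0.11, 95% interval -0.21 to 0.34). The second Lbr site, upstream of the gene (chr1:181848134-181848614), held 75 and 71 in WT and 88 and 96 in KO. Its log2 fold change was 0.33 (SE 0.28, 95% interval -0.36 to 1.01), with both KO values above both WT values.

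Tmpo encodes the lamina-associated polypeptides 2, LEM-domain proteins of which some sit in the membrane and one in the nucleoplasm. Its main promoter site (chr10:91171122-91172024) held 451 and 377 in WT and 390 and 441 in KO, with a log2 fold change of 0.01 (SE 0.15, 95% interval -0.35 to 0.37). Both KO values lay between the WT values. Of its 9 sites, 7 were above 0 (50.7% of all sites) and 2 below. The most accessible nonpromoter site, in an intron (chr10:91166930-91167728), held 240 and 269 in WT and 285 and 311 in KO, a log2 fold change of 0.23 (SE 0.17, 95% interval -0.17 to 0.63). In a coding exon, the site at chr10:91158347-91159030 held 222 and 242 in WT and 278 and 289 in KO (log2 fold change 0.29, SE 0.17, 95% interval -0.12 to 0.69). Both of these sites separated the genotypes, with KO above WT (14.6% of all sites), while the promoter did not.

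Per kb, the main promoters of Lemd2 and Lemd3, the remaining LEM-domain genes, were near the median of all promoter sites. They stood at 241 and 231 against 234, lower than the other members except Lmnb2. The promoter of Lemd2, whose product takes part in closing the nuclear envelope after mitosis (chr17:27203041-27204740, also in the antisense gene Gm26724), held 402 and 365 in WT and 413 and 459 in KO. Both KO values were above both WT values, with a log2 fold change of 0.18 (SE 0.13, 95% interval -0.14 to 0.51). Its most accessible nonpromoter site, at the 3′ end of the gene (chr17:27189791-27190231), held 105 and 64 in WT and 70 and 72 in KO, where WT replicate 1 alone was high (log2 fold change -0.21, SE 0.35, 95% interval -1.05 to 0.64). The promoter of Lemd3, which encodes MAN1, an inhibitor of SMAD signalling (chr10:120978032-120979704), held 382 and 392 in WT and 447 and 326 in KO. The KO values lay on both sides of the WT values, and the log2 fold change was -0.02 (SE 0.18, 95% interval -0.46 to 0.42). Upstream of Lemd3 (chr10:120984147-120984633), values of 53 and 55 in WT and 52 and 99 in KO gave a log2 fold change of 0.41 (SE 0.40, 95% interval -0.56 to 1.37) that rested on KO replicate 2, since without it the value was -0.053.

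In Sun1, all 3 sites were above 0 (50.7% of all sites), but none passed the test. In 2 of them both KO values were above both WT values (14.6% of all sites). Among promoter sites with a mean of at least 300, such as that of Sun1, these shares were 80.7% and 41.6%. At the Sun1 promoter (chr5:139200040-139201199) normalized counts were 465 and 459 in WT and 494 and 508 in KO, a log2 fold change of 0.12 (SE 0.11, 95% interval -0.14 to 0.38). A site over exons inside the gene (chr5:139215093-139215750), which also overlaps the antisense gene 4930520M14Rik, held 285 and 301 in WT and 350 and 388 in KO. It had a log2 fold change of 0.33 (SE 0.15, 95% interval -0.03 to 0.69), or 0.36, past an unadjusted p of 0.05, once each library was centred on the median of its chromosome. ATAC-Seq carries no strand, so such a site cannot be assigned to 1 of 2 overlapping genes.

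In Sun2, 1 of 4 sites separated the genotypes, with both KO values above both WT values (14.6% of all sites). Its promoter (chr15:79741877-79742849), which also lies in the lncRNA gene Gm16576, held 361 and 389 in WT and 413 and 325 in KO, with a log2 fold change of -0.03 (SE 0.16, 95% interval -0.43 to 0.36). An intronic site (chr15:79734584-79735119) held 147 and 62 in WT and 207 and 78 in KO, so that replicates of each genotype differed by more than the genotypes did (log2 fold change 0.41, SE 0.58, 95% interval -1.0 to 1.82). The other Sun2 promoter site, in an intron (chr15:79741182-79741521), held 68 and 71 in WT and 75 and 48 in KO. Its log2 fold change was -0.21 (SE 0.35, 95% interval -1.06 to 0.64). The largest fold change of the 48 sites, 0.74 (SE 0.44, 95% interval -0.32 to 1.79), was at a weak site upstream of Sun2 (chr15:79748094-79748315), with 30 and 18 in WT and 37 and 42 in KO. It was the site whose genotypes did not overlap.

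Banf1 encodes BAF, which cross-links DNA and recruits LEM-domain proteins. It had 1 site, a promoter shared with the neighbouring gene Eif1ad (chr19:5366092-5367351), with 421 and 354 in WT and 569 and 441 in KO. Both KO values were above both WT values, and at 0.38 (SE 0.17, 95% interval -0.04 to 0.79) it had the largest fold change of the 10 main promoters. Chromosome 19 as a whole had a median log2 fold change of 0.23, from 0.47 in KO replicate 1 and -0.03 in KO replicate 2, each against the WT mean. With each library centred on its chromosome medians, the Banf1 value was 0.14, and without KO replicate 2 it was 0.56, past an unadjusted p of 0.05. Chromosome 15, which carries Sun2, had a median of 0.12, and the other chromosomes of the 10 genes lay between -0.03 and 0.02.

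**Figure D3:**
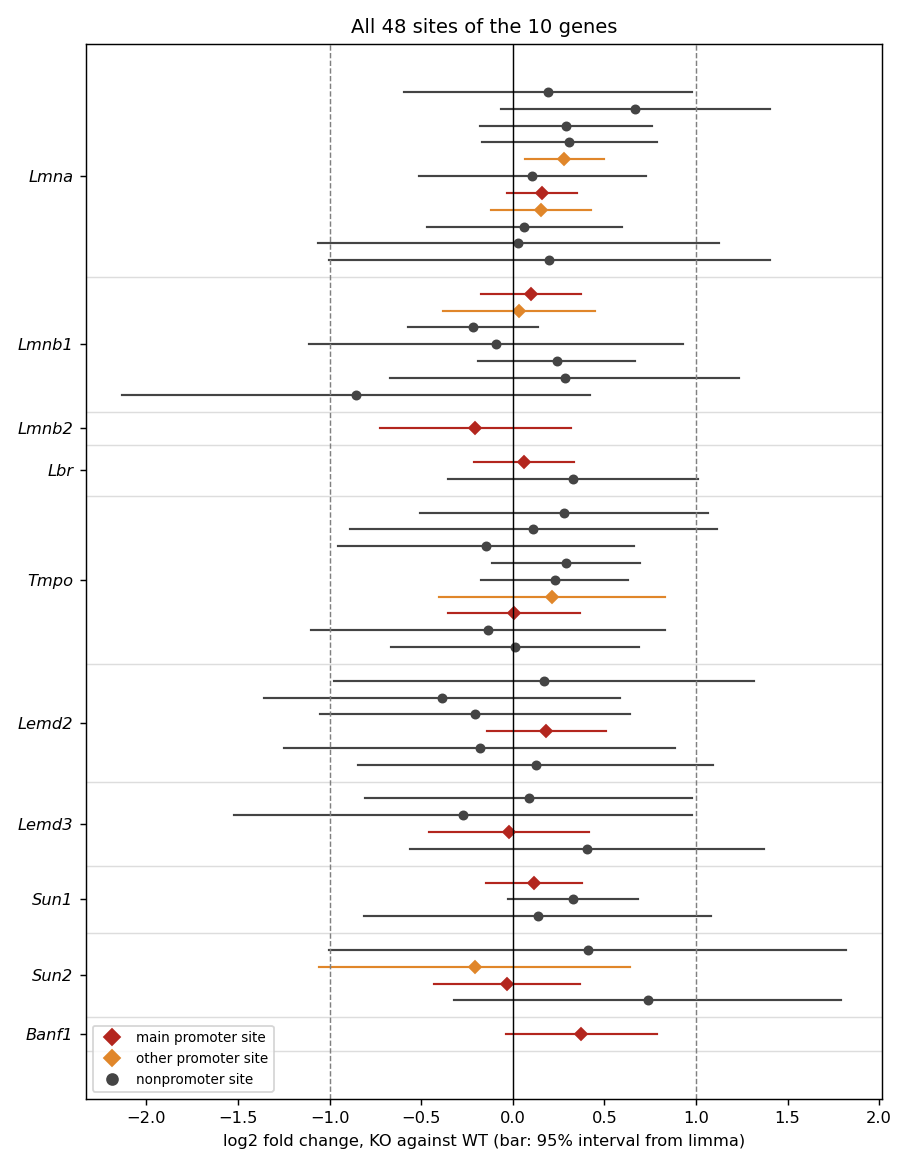
The log2 fold change, KO against WT (x axis), with its 95% limma interval (bar) for each of the 48 sites, grouped by gene in genome order (y axis), with diamonds for promoter sites and circles for nonpromoter sites, and dashed lines at -1 and 1. Every point lies between the dashed lines, from -0.86 to 0.74, and the intervals of promoter sites are mostly the shorter ones.

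Taking the 48 sites as a whole, none passed the call rule, an unadjusted limma p under 0.01 and a change of 2-fold or more, which 0.373% of all sites met, and none had an adjusted p under 0.05 (nor did any of the 82325 sites). The median log2 fold change was 0.12, against 0.01 for all sites. It was 0.053 with equal totals (-0.061 for all sites), 0.059 after quantile normalization and 0.066 without WT replicate 2. There were 35 sites above 0 and 13 below (50.7% of all sites were above 0), and 29 were above 0 with the libraries scaled to equal totals and 27 after quantile normalization. Both KO values were above both WT values in 16 sites (14.6% of all sites) and below in 5 (14.3%). No site reached a 2-fold difference. The 95% interval lay within a 2-fold difference either way for 27 of the 48 sites, including 14 of the 15 promoter sites and 13 of the 33 others, so a 2-fold change was outside the interval at nearly all promoters but not at most distal sites. In bulk cells, a smaller share of cells with an open site and a lower accessibility per cell cannot be told apart.

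Differences between genotypes were set beside those between replicates. Over the 48 sites, the median absolute log2 difference between KO and WT means was 0.20, while that of the WT pair was 0.17 and that of the KO pair 0.21. At the 10 main promoter sites these were 0.11, 0.07 and 0.17, and over all 82325 sites they were 0.25, 0.34 and 0.43. A difference between means of 2 libraries varies less than one between single libraries, so the first value of each set is not on the same footing as the others.

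The promoter values were read against those of all promoters, because fold changes moved with the level of a site. Over all promoter sites the median log2 fold change went from -0.24 at a mean of 25 to 50 normalized counts, through -0.03 at 100 to 200, to 0.13 at 400 to 500 and 0.22 at 700 to 1000. Both KO values were above both WT values in 41.6% of the 4271 promoter sites with a mean of at least 300, whose median was 0.12 and of which 80.7% were above 0. Of the 10 main promoters, 9 had such a mean, with a median of 0.10, 7 above 0, 5 with both KO values above and none with both below (4.19% of those promoter sites). The median of these 9 main promoters was thus no higher than that of promoters of like level. The 33 nonpromoter sites of the members were not matched by level. Their median was 0.135, against 0.002 for all nonpromoter sites, and 24 of them were above 0 (33264 of all 66248). The second Lmna promoter site, at 0.28, was at the edge of the middle 50% of promoter sites at 700 to 1000, which spanned 0.14 to 0.28, and the main Lmna site, at 0.16, was below their median. Banf1 lay above the middle 50% at its level (0.03 to 0.21) and Lmnb2 below it (-0.17 to 0.11). The promoters of Tmpo, Lemd3 and Sun2 also lay below the middle 50% of promoter sites at their level. Both KO libraries were shallower, and the part of depth in this trend was not tested. After quantile normalization the median of promoters with a mean of at least 300 was -0.02, that of the 48 sites was 0.06, and the main promoter sites of Lmna (-0.058), Lmnb1 (-0.063), Lbr (-0.085), Tmpo (-0.13) and Sun1 (-0.034) turned to below 0.

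**Figure D4:**
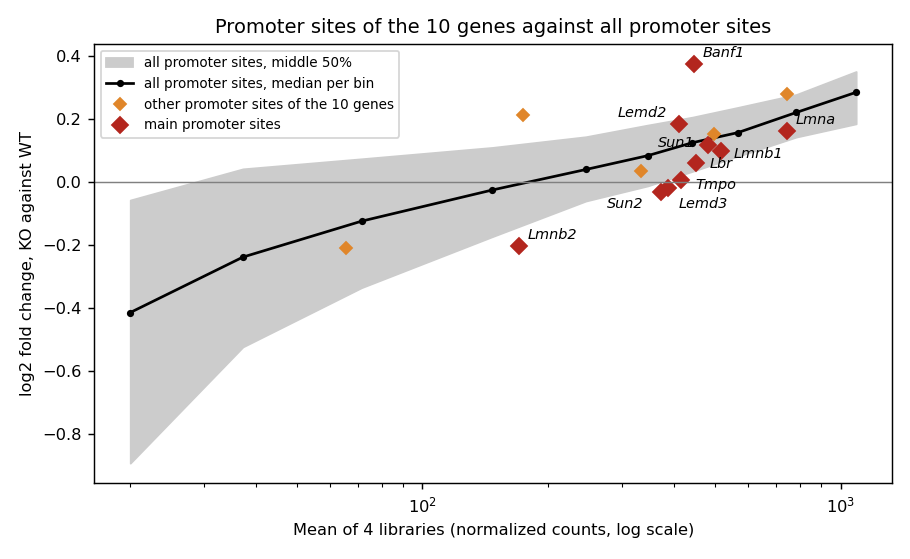
The log2 fold change, KO against WT (y axis), against the mean of 4 libraries in normalized counts (x axis, log scale), with a black line for the median and a grey band for the middle 50% of all promoter sites in bins of their mean, and diamonds for the promoter sites of the 10 genes. The line rises from -0.41 in the lowest bin to 0.29 in the highest, and among the main promoter sites Banf1 lies above the band and Lmnb2, Sun2, Lemd3 and Tmpo below it.

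Summing the sites of each gene gave the same picture. Of 17029 protein-coding genes with a site, 0.299% were called by the same rule, and none of the 10 members was. No member had an unadjusted p under 0.05 (3.94% of all genes), though Sun1 passed this level with chromosome medians centred (0.23) and Banf1 without KO replicate 2 (0.56). The sum for Lmna was 2916 and 3232 in WT and 3755 and 3375 in KO. The genotypes did not overlap, with a log2 fold change of 0.21 (SE 0.14, limma adjusted p = 0.928). Sun1 had sums of 827 and 844 in WT and 968 and 959 in KO, where the libraries of each genotype were close together and the log2 fold change was 0.21 (SE 0.11, limma adjusted p = 0.928). After quantile normalization the sums of Lmna and Sun1 had log2 fold changes of 0.061 and 0.081. Both KO sums were above both WT sums in 4 genes (23% of all genes) and below in 1, Lmnb2 (11.7% of all genes). The other sums had log2 fold changes of 0.02 for Lmnb1, 0.10 for Lbr, 0.12 for Tmpo, 0.08 for Lemd2, 0.05 for Lemd3 and 0.07 for Sun2, and those of Lmnb2 and Banf1 were their single sites. Promoter sites held from 38.6% of the summed signal at Tmpo to 84.5% at Lbr among the genes with more than 1 site.

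None of the 10 genes had a neighbourhood under the cutoff for a domain of lower accessibility. The mean log2 fold change over the 25 consecutive sites centred on each main promoter site was compared with the study's domain cutoff of -0.58, under which 3.42% of all windows fell. The study listed its domains from primary MEFs and joined neighbouring low regions. A window here comes from immortalized lines and the limma fit, and the positions of the study's domains were not used. The lowest windows were those of Lmnb1, at -0.18, and Lemd3, at -0.17. For both, the WT libraries differed from each other by more than KO differed from WT, at 0.45 and 0.61 on the same scale. The highest was that of Banf1, at 0.24, to which KO replicate 1 contributed 0.50 and KO replicate 2 a value of -0.01. The nearest window under the cutoff was 1.81 Mb from Lemd3, 1.86 Mb from Lmnb1 and 2.2 Mb from Lmna, and 5.14 to 48.58 Mb from the other members. The surroundings varied widely in gene density, with 4 protein-coding TSSs in 1 Mb around Tmpo and 59 around Lmnb2.

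**Figure D5:**
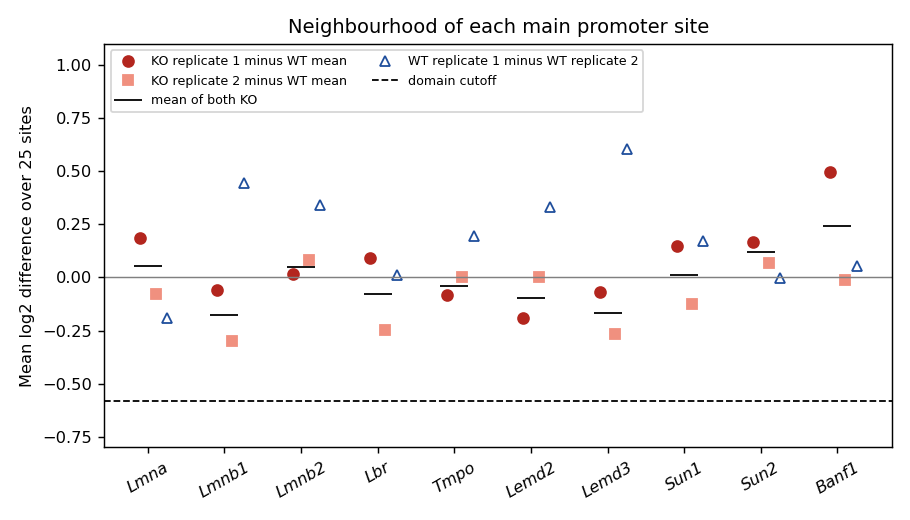
Mean log2 difference over the 25 sites around the main promoter site (y axis) for each gene (x axis), with filled symbols for each KO library against the WT mean, a bar for the mean of both, open triangles for WT replicate 1 minus WT replicate 2 and a dashed line at the cutoff of -0.58. All bars lie above the cutoff, from -0.18 at Lmnb1 to 0.24 at Banf1, and at Lmnb1, Lmnb2, Tmpo, Lemd2, Lemd3, Sun1 and, by little, Lmna the triangles lie farther from 0 than both KO symbols.

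Promoters of other nuclear envelope genes were examined with the same fit, and again no site was called. The list held 30 genes for other LEM-domain proteins, nesprins, torsin and its cofactors, the enzymes that process prelamin A, HP1 proteins and other envelope or pore proteins. Of these, 26 had a promoter site, on 25 distinct sites because Tor1aip1 and Tor1aip2 share one, and Syne4, Tmem43, Plpp7 and Cbx3 had no site listed. The rule called 0 of the 25 and 0.249% of all promoter sites. The median log2 fold change was 0.14, with 19 sites above 0 and 6 below. Of all 16077 promoter sites 8505 were above 0, and 80.7% of those with a mean of at least 300. Both KO values were above both WT values in 13 (19.3% of all promoter sites) and below in 1 (15.3%). Of the 25 sites, 15 had a mean of at least 300, and both KO values were above in 11 of these and below in 0, against 41.6% and 4.19% of all promoter sites at that level. One site had an unadjusted limma p under 0.05, and it was higher in KO (2.13% of all promoter sites were higher at this level). It was the promoter of Prr14, which encodes a protein that tethers HP1-bound heterochromatin to the lamina, with 421 and 504 in WT and 561 and 663 in KO. The genotypes did not overlap, at a log2 fold change of 0.40 (SE 0.14, 95% interval 0.06 to 0.75), with an unadjusted limma p of 0.0276 and a limma adjusted p = 1. Without WT replicate 1, WT replicate 2 or KO replicate 2 (0.28, 0.53 and 0.28) it no longer passed, nor after quantile normalization (0.24) or without the intensity trend.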

How the data were processed

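ATAC-Seq was analysed in 4 libraries of immortalized MEFs, 2 WT and 2 KO. Per the study's methods and the submitters' processing notes, the authors aligned reads to mm10 with BWA (0.7.12), called peaks with MACS2 (2.1.0) and compared merged regions with DESeq2. The values in the deposited table are a score: the authors scaled the read counts with 1 factor for each library, then rounded them, and they are called normalized counts here. Treatment of the Tn5 offset and of duplicate reads was not given in the sources used here. The table also holds 4 deposited columns of log2 fold changes and p-values from the authors' own DESeq2 comparison, which were not used. Whole reads could not be recovered for WT, so no count test was made, and depths are approximate.

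Sites were annotated with GENCODE M21 on GRCm38. limma 3.58.1 with an intensity trend (R 4.3.3) was fitted to log2(value + 1) over all 82325 sites, with no filter, and to sums over the sites of each of 17029 genes. The pseudocount of 1 understates the change of low sites. p-values are two-sided and adjusted by Benjamini-Hochberg over all sites or genes. They rest on the spread between 2 lines per genotype, with each variance drawn by limma toward that of other sites or genes of like level. An exact permutation test of 2 against 2 cannot go below p = 0.333. The fit was tested on simulated data.

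Named were all 10 genes, the main promoter site and the most accessible nonpromoter site of each, sites with p under 0.05, the 3 largest rises and falls among sites whose mean reached the all-site median, and listed envelope promoters with p under 0.05. The Lmnb1 site at 56752061, the Tmpo site at 91158347 and the Sun2 site at 79748094 were added after their values were seen. The members and lists were chosen with earlier results of these data known. Other scalings, pseudocounts, filters, windows, member rules and left-out libraries were tried. Python 3.11.15, pandas 2.3.3 and matplotlib 3.10.9 were also used.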

Additional observations from a re-analysis of the deposited data

How the results depend on the processing

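No paired analysis was possible because the labels give no replicate numbers and the genotypes share fewer than 2 line numbers: the titles of WT replicate 1 and KO replicate 2 share one, whose meaning is not given, and the other titles share none. The counts of called member sites, called member genes and members in low windows were 0 under every alternative run. In the main run, 0.373% of all sites and 0.299% of all genes were called, and 3.42% of all windows were low. Counts of 0 were thus near these shares. The median log2 fold change of the member sites, 0.12, was 0.053 with equal totals and 0.059 with quantile normalization, and 0.066 (without WT replicate 2) to 0.147 when a library was left out. Member sites above 0 numbered 29 with equal totals, 27 with quantile normalization and 27 to 36 with a library left out. The count of other envelope promoters at p under 0.05 was 0 with quantile normalization or without the trend, 2 with chromosome medians centred, and 0 to 3 with a library left out. Of 320 values for single sites and genes, 31 turned sign, the cause of which was not tested. With quantile normalization these were the main promoters of Lmna (-0.058), Lmnb1 (-0.063), Lbr (-0.085), Tmpo (-0.13) and Sun1 (-0.034), and the sums of Lmnb1 (-0.102), Lbr (-0.024), Lemd3 (-0.031) and Sun2 (-0.016). With equal totals they were the promoters of Lbr (-0.008) and Tmpo (-0.06) and the sums of Lmnb1 (-0.052) and Lemd3 (-0.017), and with chromosome medians centred the sum of Sun2 (-0.063). With a library left out, promoter values ranged from -0.12 to 0.14 for Tmpo, -0.25 to 0.21 for Lemd3 and -0.21 to 0.14 for Sun2. Other sites ranged from -0.56 to 0.15 for Lemd2, -0.053 to 0.86 for Lemd3, and -0.29 to 1.11 and -0.53 to 0.11 for the Sun2 sites at 79734584 and 79741182. Sums ranged from -0.058 to 0.091 for Lmnb1, -0.05 to 0.22 for Lemd2, -0.058 to 0.16 for Lemd3 and -0.21 to 0.36 for Sun2. Precision was lower at weak sites, where the 95% interval lay within a 2-fold difference for 1 of 9 member sites under the all-site median and for 26 of the 39 others.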
